A study of Mus musculus with 10 samples.

Results

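A set of 10 genes that control passage through the G1 phase was followed in mouse splenic B cells: the kinase genes Cdk6, Cdk4 and Cdk2, the cyclin genes Ccnd2 and Ccnd3, the inhibitor genes Cdkn1b, Cdkn2c and Cdkn2d, the retinoblastoma gene Rb1 and the transcription factor gene E2f1. They were chosen by gene symbol, and all 10 were found among 19937 genes with a level on the array. Of these, 9 had 1 probe set and Cdkn1b had 2. Each level below is the log2 of the authors' RMA intensity, a normalized brightness of all probes in a probe set, so a difference of 1 means 2 times the intensity, and levels of different genes were not set against each other.

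The data were 10 Affymetrix Mouse Gene 1.0 ST arrays of B220+CD22+ cells sorted from spleens of CBAxC57BL/6J mice. The delta group, labelled Sca1-Bcl6(delta), held 4 arrays from mice whose loxP-flanked Bcl6 transgene had met Cre from the mb1 (Cd79a) locus, which is active in the B lineage. The floxed group, labelled Sca1-Bcl6(floxed), held 3 arrays from mice with the same transgene still flanked by loxP sites, and the wild-type group held 3 arrays. The transgene joins Bcl6, IRES and eGFP in a vector of the Sca1 (Ly6a) gene, which is active in stem and progenitor cells. These facts limit these groups as models. No group carries mb1-Cre without the transgene, so what the recombined transgene and what the Cre allele bring in delta mice cannot be told apart. The design names 2 transgenic lines, and the labels assign no array to a line, an age or a sex, nor state that each array is a separate animal, so p-values measure the spread between these samples.

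In the G1 phase a cell decides whether to copy its DNA. D-type cyclins, made in answer to growth signals, bind CDK4 and CDK6, and these kinases phosphorylate the retinoblastoma protein, which then releases E2F factors to switch on replication genes. INK4 inhibitors such as p18 and p19 block CDK4 and CDK6, while p27 holds CDK2 in check. Mature splenic B cells are mostly resting and can use cyclin D2 or D3 with CDK4 or CDK6 to enter the cycle after antigen receptor signals.

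Across the arrays the median RMA intensity was 139 to 145, and Pearson correlations over all genes were 0.993 to 0.997 within groups and 0.989 to 0.996 between groups. The mean of 8 B cell markers lay at log2 12.87 to 12.96 in delta, 12.92 to 13.05 in floxed and 13.01 to 13.10 in wild-type arrays. Bcl6 itself was not higher with the transgene, at -0.17 in floxed versus wild-type (limma adjusted p = 0.688) and -0.35 in delta versus wild-type (adjusted p = 0.578). Whether its probes read the transgene as well as the endogenous gene was not tested. Cd79a, the locus that carries the Cre, was lower in delta versus wild-type, at -0.48 (adjusted p = 0.0427). Xist and 3 Y-linked genes gave a male pattern in 1 of 4 delta arrays (delta 1), 3 of 3 floxed arrays and 0 of 3 wild-type arrays. In floxed versus wild-type, sex pattern and genotype therefore cannot be told apart. The mean of 13 T cell markers was, relative to the wild-type mean, -0.11 to 0.20 in delta arrays, 0.61, 0.0085 and 0.46 in floxed 1, 2 and 3, and -0.15 to 0.079 in wild-type arrays. For 8 erythroid markers it was -0.35 to 0.32 in delta, 0.37 to 0.79 in floxed and -0.17 to 0.23 in wild-type arrays. For 10 NK cell markers it was -0.13 to 0.28 in delta, 0.16 to 0.61 in floxed and -0.082 to 0.052 in wild-type arrays, and for 7 plasma cell markers 0.032 to 0.12 in delta, 0.24 to 0.26 in floxed and -0.097 to 0.082 in wild-type arrays.

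**Figure D1:**
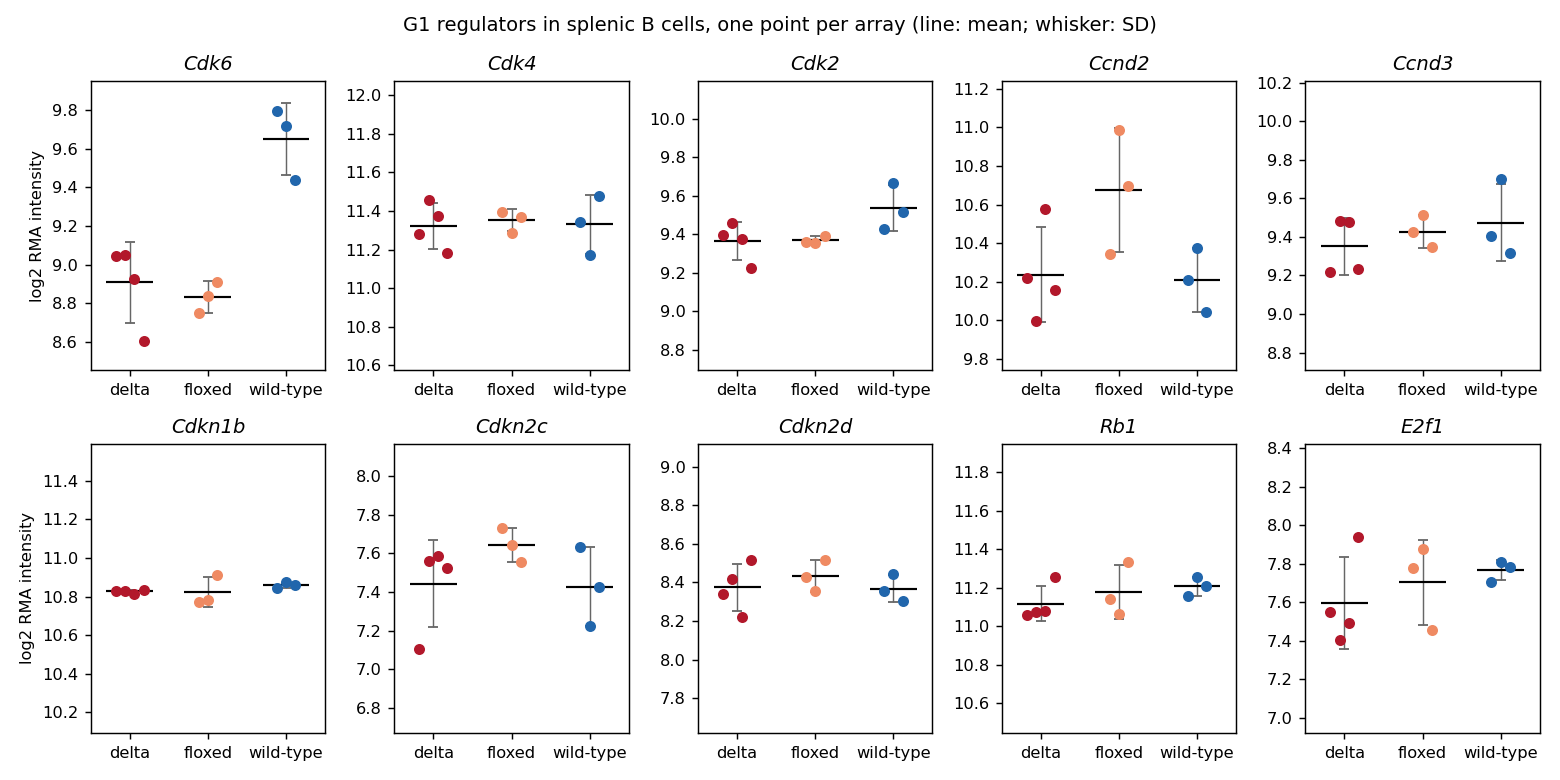
Log2 RMA intensity of each of the 10 genes, with 1 point per array for delta, floxed and wild-type; the line is the group mean and the whisker the SD, and every panel spans the same height in log2 units. Cdk6 lies below all wild-type arrays in all 4 delta and all 3 floxed arrays, whereas the groups of Cdk4 lie on top of each other.

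Cdk6, which encodes a kinase partner of the D cyclins, was the sole gene of this set with an adjusted p under 0.05. That was in floxed versus wild-type only. Its log2 level was 9.05, 9.05, 8.93 and 8.61 in delta arrays 1 to 4, and 8.75, 8.84 and 8.91 in floxed arrays 1 to 3, against 9.80, 9.72 and 9.44 in wild-type arrays 1 to 3. All 7 arrays of transgenic mice lay below all wild-type arrays, and delta and floxed arrays overlapped. On the linear scale the delta arrays had a mean intensity of 484 ± 65.9 (SD, n = 4), the floxed arrays of 456 ± 25.8 (SD, n = 3) and the wild-type arrays of 809 ± 102 (SD, n = 3).

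In floxed versus wild-type Cdk6 fell by 43.3%, or by 0.82 in log2 units, with an SE of 0.12 and a 95% CI of -1.09 to -0.55 (adjusted p = 0.0171). It ranked 36 by p among all genes. Here the adjusted p is from limma, adjusted by Benjamini and Hochberg over 19937 genes, and calls were made at 0.05. In delta versus wild-type the change of Cdk6 was of like size, -0.75 (SE 0.12, 95% CI -0.999 to -0.49), ranked 16 by p and narrowly missed the threshold (adjusted p = 0.052). Delta minus floxed was 0.07 (95% CI -0.18 to 0.33, adjusted p = 0.941), so the order wild-type, delta, floxed is resolved between wild-type and floxed only.

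The call of Cdk6 in floxed versus wild-type ended without floxed replicate 1, 2 or 3 (adjusted p = 0.06, 0.0676 and 0.0609) and without wild-type replicate 1 or 2 (adjusted p = 0.0673 and 0.0907), at log2 changes of -0.86 to -0.75. It also ended when the fit held a term for the sex pattern (-1.01, adjusted p = 0.308), a value that rests on delta 1. The same held with a term for the T cell marker mean (-0.65, adjusted p = 0.175) or the erythroid marker mean (-0.53, adjusted p = 0.382). With floxed 1 and 3 both left out, which leaves 1 floxed array, the change was -0.81. Floxed 2, whose T cell marker mean was 0.0085 from that of wild-type arrays, had a Cdk6 level of 8.84. Relative to the wild-type mean, floxed 2 was at 0.56 for erythroid, 0.36 for myeloid and 0.16 for NK cell markers. Floxed 1 and delta 4, at 0.61 and 0.62 for myeloid markers, had the lowest Cdk6 levels of their groups, 8.75 and 8.61. These arrays were also the highest of their groups for T cell (0.61 and 0.20), NK cell (0.61 and 0.28) and erythroid markers (0.79 and 0.32). Whether cells other than B cells set these Cdk6 levels was not tested. Among arrays of female pattern, delta 2 to 4 averaged 0.79 below the wild-type arrays, and among arrays of male pattern, delta 1 lay 0.21 above the floxed mean. The difference of Cdk6 between delta and wild-type passed the threshold under 7 of 24 other settings, among them without wild-type replicate 3 (-0.85, adjusted p = 0.0465). That difference did not pass without delta replicate 1 or with a term for the sex pattern. In these bulk samples, fewer cells with Cdk6 RNA and less of it per cell cannot be told apart. Markers of pro-B and pre-B cells, in which D cyclin kinases are active, had 1 of 11 genes called lower in floxed versus wild-type. This was Cd93, at -1.58, beside 0.161% of all genes called lower, and 0 of these markers were called higher. The mean of these 11 markers was 7.07 to 7.20 in delta, 7.09 to 7.26 in floxed and 7.26 to 7.54 in wild-type arrays. Their changes in floxed versus wild-type ran from -1.58 to 0.70, with a median of -0.07. In delta versus wild-type they ran from -1.30 to 0.10, with a median of -0.11. In each, 2 lay above 0 and 9 below, where 58.1% and 56.4% of all genes lay below 0. The part of these markers in the change of Cdk6 was not tested. The mean of 14 myeloid markers split the arrays as Cdk6 did, in the other direction, at 0.10 to 0.62 in delta and 0.26 to 0.61 in floxed arrays, while wild-type arrays lay at -0.0092 to 0.0064, each relative to the wild-type mean. The median change of these 14 markers was 0.07 in floxed versus wild-type, with 9 above 0 and 5 below. In delta versus wild-type it was 0.02, with 7 above 0 and 7 below. Of these markers 0 were called in limma. At an unadjusted p under 0.05 there were 3 higher and 1 lower in floxed versus wild-type, beside 6.14% and 6.63% of all genes. In delta versus wild-type there were 2 higher and 0 lower, beside 3.46% and 4.44% of all genes. Groups did not overlap for 3 of the 14 in each of these comparisons, all higher. Of all genes 7.6% did so in floxed and 3.75% in delta. These 3 markers, named after their values were seen, were Adgre1, Itgax and Itgam. They were at 1.91, 1.92 and 1.12 in floxed (adjusted p = 0.0809, 0.121 and 0.276). In delta they were at 1.35, 1.10 and 0.83 (adjusted p = 0.376, 0.595 and 0.636). The part of myeloid markers in the change of Cdk6 was not tested.

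Cdk4, the kinase closest to Cdk6 in function, had log2 levels of 11.18 to 11.46 in delta, 11.29 to 11.40 in floxed and 11.17 to 11.48 in wild-type arrays. The 3 groups overlapped throughout. Its change was 0.02 in floxed versus wild-type (95% CI -0.18 to 0.22, adjusted p = 0.95) and -0.0072 in delta versus wild-type (95% CI -0.19 to 0.18, adjusted p = 0.991). The intervals for Cdk4 and Cdk6 do not meet in either comparison with wild-type, and the difference between the kinases was not tested.

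Cdk2, which acts after the D cyclin kinases with cyclins E and A, had log2 levels of 9.40, 9.46, 9.38 and 9.23 in delta, 9.36, 9.36 and 9.39 in floxed, and 9.43, 9.66 and 9.52 in wild-type arrays. All floxed arrays lay below all wild-type arrays, while delta 2 lay above wild-type 1. The change was -0.17 in floxed versus wild-type (SE 0.08, adjusted p = 0.403) and -0.17 in delta versus wild-type (SE 0.07, adjusted p = 0.593), and neither passed. Without wild-type replicate 2 these values were -0.10 (adjusted p = 0.749) and -0.11 (adjusted p = 0.876). Delta minus floxed was -0.0055 (95% CI -0.17 to 0.15, adjusted p = 0.995).

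The stretches before the start sites of the 3 kinase genes are shown because Cdk6 passed the threshold in floxed versus wild-type and its relatives did not. They come from RefSeq's promoter table for build GRCm38.p6 and hold the 250 bases before the start, 5′ to 3′ on the gene's strand. Cdk6 lies on the plus strand at chr5:3343643-3343892, Cdk4 on the plus strand at chr10:127063285-127063534 and Cdk2 on the minus strand at chr10:128705052-128705301. Capitals mark matches, on either strand, to the E-box CACGTG, which MYC binds, or to the E2F motifs TTTCGCGC, TTTGGCGC and TTTCCCGC.
Cdk6: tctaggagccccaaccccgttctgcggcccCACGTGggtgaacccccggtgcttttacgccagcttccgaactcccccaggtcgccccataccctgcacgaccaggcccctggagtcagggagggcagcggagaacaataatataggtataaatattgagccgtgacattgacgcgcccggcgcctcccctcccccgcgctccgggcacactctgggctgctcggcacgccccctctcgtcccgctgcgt
Cdk4: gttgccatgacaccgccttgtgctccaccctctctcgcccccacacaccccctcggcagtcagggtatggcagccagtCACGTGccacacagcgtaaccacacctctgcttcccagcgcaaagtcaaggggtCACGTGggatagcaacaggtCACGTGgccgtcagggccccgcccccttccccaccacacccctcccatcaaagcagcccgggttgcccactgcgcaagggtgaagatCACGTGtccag
Cdk2: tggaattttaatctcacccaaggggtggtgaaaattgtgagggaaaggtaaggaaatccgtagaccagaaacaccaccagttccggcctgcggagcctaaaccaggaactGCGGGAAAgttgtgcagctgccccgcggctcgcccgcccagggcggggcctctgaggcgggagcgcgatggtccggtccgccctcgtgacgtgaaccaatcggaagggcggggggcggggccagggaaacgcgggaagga
Cdk6 held 1 E-box, which begins 220 bases before the start, and Cdk4 held 4, while Cdk2 held none and had 1 E2F match 140 bases before the start. E-boxes were found in 6.02% and the E2F motifs in 1.53% of 32851 windows of this length in the table. The pattern TTCNNNGAA, which STAT factors bind and BCL6 can share, was found in 7.02% of windows and in none of the kinase genes' windows. Windows were matched for 8 of the 10 genes, all but Ccnd2 and Rb1. In the listed windows of the other 5 genes (Ccnd3, Cdkn1b, Cdkn2c, Cdkn2d and E2f1) no motif searched was found. Starts that the promoter table does not list were not searched. E2f1 had a sole listed window, and whether it lies before the main start of the gene was not tested. A match is a run of letters, not a measured site, and a window without one says nothing of the factor.

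Ccnd2, which encodes cyclin D2, the D cyclin that B cells induce on receptor signalling, varied most after Cdk6. Its log2 level was 10.22, 9.996, 10.58 and 10.16 in delta arrays, 10.35, 10.99 and 10.70 in floxed arrays and 10.21, 10.37 and 10.04 in wild-type arrays. Floxed 2 and 3 lay above every other array, and floxed 1 lay within the range of the delta and wild-type arrays. The change was 0.47 in floxed versus wild-type (SE 0.17, 95% CI 0.10 to 0.84, adjusted p = 0.269). For delta versus floxed it was -0.44 (SE 0.16, 95% CI -0.79 to -0.09, adjusted p = 0.73), and neither passed the threshold. For delta versus wild-type it was 0.03 (95% CI -0.32 to 0.38, adjusted p = 0.985). The highest level, in floxed 2, was in the floxed array whose T cell marker mean was nearest to wild-type. That array was at 0.56 for erythroid, 0.36 for myeloid and 0.16 for NK cell markers, relative to the wild-type mean. Whether cells other than B cells set the level of Ccnd2 was not tested. Leaving out 1 floxed array moved the difference between floxed and wild-type to between 0.31 and 0.63, with the low value without floxed replicate 2. The same difference was 0.78 without floxed 1 and 3 (adjusted p = 0.23), 0.70 with a term for the T cell marker mean (adjusted p = 0.261) and 0.73 with one for the erythroid marker mean (adjusted p = 0.481). For delta versus floxed those settings gave -0.75, -0.69 and -0.67, and leaving out floxed replicate 2 gave -0.28 (adjusted p = 0.839).

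Ccnd3, the cyclin D3 gene, had log2 levels of 9.22 to 9.48 in delta, 9.35 to 9.51 in floxed and 9.32 to 9.70 in wild-type arrays. The groups overlapped in all comparisons, with a change of -0.05 in floxed versus wild-type (95% CI -0.29 to 0.19, adjusted p = 0.902) and -0.12 in delta versus wild-type (95% CI -0.35 to 0.10, adjusted p = 0.85). The sign of the difference between floxed and wild-type turned under several alternatives, and that between delta and wild-type was -0.077 without delta replicate 1, -0.0092 without wild-type replicate 2 and -0.20 without wild-type replicate 3.

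Cdkn1b, the gene of the inhibitor p27, which is abundant in resting lymphocytes, was the steadiest of the set. Its main probe set spanned 0.14 log2 units over all 10 arrays, a span at percentile 1.56 among all genes. Delta arrays lay at 10.82 to 10.83, floxed arrays at 10.77 to 10.91 and wild-type arrays at 10.85 to 10.87. All 4 delta arrays lay below all 3 wild-type arrays, by a mean of 0.03 (adjusted p = 0.944). Its second probe set ranged from 7.74 to 8.66, a wider span, with a change of 0.25 in floxed versus wild-type (SE 0.19, adjusted p = 0.62) and 0.04 in delta versus wild-type (SE 0.18, adjusted p = 0.984). The probe sets differ in sign in these comparisons and neither passed.

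Cdkn2c, the gene of the INK4 inhibitor p18, which restrains CDK4 and CDK6 in B cells, had log2 levels of 7.10, 7.56, 7.58 and 7.52 in delta, 7.73, 7.64 and 7.56 in floxed, and 7.63, 7.22 and 7.42 in wild-type arrays. Delta 1 lay below every other array, and the groups overlapped. The change was 0.22 in floxed versus wild-type (SE 0.13, adjusted p = 0.532), 0.02 in delta versus wild-type (adjusted p = 0.988) and -0.20 in delta versus floxed (SE 0.12, adjusted p = 0.847). Without delta replicate 1, the sole delta array of male pattern, delta lay 0.13 above wild-type and the difference from floxed was -0.087. With a term for the sex pattern the change was 0.67 in floxed versus wild-type (SE 0.17, adjusted p = 0.433) and -0.54 in delta versus floxed (adjusted p = 0.511), values that rest on delta 1. Without wild-type replicate 2 the change in floxed versus wild-type was 0.12 (adjusted p = 0.853). Cdkn2d, the gene of the related inhibitor p19, lay at 8.22 to 8.52 in delta, 8.35 to 8.52 in floxed and 8.30 to 8.45 in wild-type arrays. Its changes were 0.06 in floxed versus wild-type (95% CI -0.11 to 0.24, adjusted p = 0.794) and 0.0058 in delta versus wild-type (95% CI -0.16 to 0.17, adjusted p = 0.992).

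Rb1, whose protein binds E2F factors until the kinases phosphorylate it, lay at 11.06 to 11.25 in delta, 11.06 to 11.33 in floxed and 11.16 to 11.26 in wild-type arrays. Its difference was -0.03 in floxed versus wild-type (95% CI -0.21 to 0.15, adjusted p = 0.922) and -0.09 in delta versus wild-type (95% CI -0.26 to 0.08, adjusted p = 0.856), within the spread between arrays. E2f1, the founding activator of the E2F family, had log2 levels of 7.55, 7.40, 7.49 and 7.94 in delta, 7.78, 7.87 and 7.46 in floxed, and 7.71, 7.81 and 7.78 in wild-type arrays. Delta 4 was the highest and delta 2 the lowest of all arrays, so the spread within delta held the other groups. Its change was -0.06 in floxed versus wild-type (SE 0.14, adjusted p = 0.89) and -0.17 in delta versus wild-type (SE 0.13, adjusted p = 0.819). The delta value was -0.29 without delta replicate 4 (adjusted p = 0.652) and -0.11 without delta replicate 2 (adjusted p = 0.937).

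**Figure D2:**
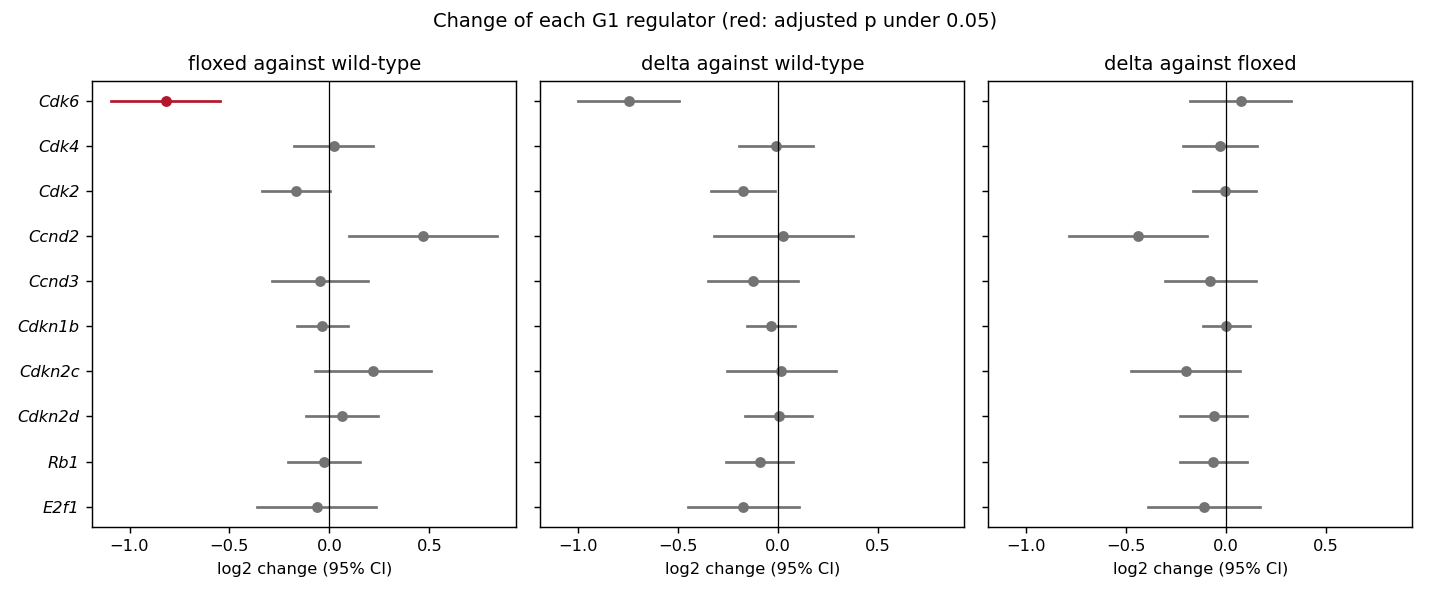
Log2 change of each gene with its 95% CI from limma, for floxed versus wild-type, delta versus wild-type and delta versus floxed; red marks an adjusted p under 0.05. The interval of Cdk6 stays below 0 in both comparisons with wild-type, at -0.82 and -0.75, and Ccnd2 stands at 0.47 and -0.44 where floxed arrays are compared.

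Counted together, 1 of the 10 genes was called lower and 0 higher in floxed versus wild-type, where limma called 0.552% of all genes (0.391% higher and 0.161% lower). At an unadjusted p under 0.05 there was 1 higher (Ccnd2) and 1 lower (Cdk6), beside 12.8% of all genes (6.14% higher, 6.63% lower). Groups did not overlap for 2 of 10 genes, Cdk6 and Cdk2, both lower, while 16.7% of all genes (7.6% higher, 9.13% lower) had groups that did not overlap. In delta versus wild-type limma called 0 of the 10 and 0.0752% of all genes (0.0301% higher, 0.0451% lower), and 2 of the 10 (Cdk6 and Cdk2, both lower) had an unadjusted p under 0.05, beside 7.89% of all genes (3.46% higher, 4.44% lower). Groups did not overlap for Cdk6 and Cdkn1b, beside 9.25% of all genes (3.75% higher, 5.5% lower). In delta versus floxed limma called 0 of the 10 and 0.00502% of all genes, 1 (Ccnd2, lower) had an unadjusted p under 0.05 beside 6.42% of all genes (3.22% higher, 3.2% lower), and groups overlapped for all 10, while 6.96% of all genes (3.36% higher, 3.61% lower) had groups that did not. Of the 10 differences between delta and floxed 8 lay below 0, where 47.9% of all genes did. Those of the 10 ran from -0.44 for Ccnd2 to 0.07 for Cdk6. The median change of the 10 was -0.03, -0.06 and -0.06 in the 3 comparisons, beside -0.02, -0.01 and 0.0045 for all genes. Both comparisons with wild-type share the same 3 wild-type arrays.

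The 5 named genes whose pattern over the 10 arrays was nearest to Cdk6 were Hmgcll1, Eps8, Ppm1e, Ehd2 and Akap12. Nearness was the root mean square difference between log2 values after each gene was set to a mean of 0, and it was 0.095, 0.096, 0.14, 0.16 and 0.17, beside a median of 0.39 over all genes. These genes were picked for this pattern, so their values are a description. Eps8, which encodes a substrate of the EGF receptor that acts on actin, lay at 7.58 to 8.25 in delta and 7.79 to 8.01 in floxed arrays, while wild-type arrays lay at 8.48 to 8.84. Ehd2, an ATPase gene of caveolae, lay at 7.61 to 7.80 in delta and 7.55 to 7.76 in floxed arrays, while wild-type arrays lay at 8.15 to 8.33. Akap12, an anchor gene for protein kinase A, lay at 7.14 to 7.56 in delta and 7.27 to 7.39 in floxed arrays, while wild-type arrays lay at 7.70 to 8.59.

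**Figure D3:**
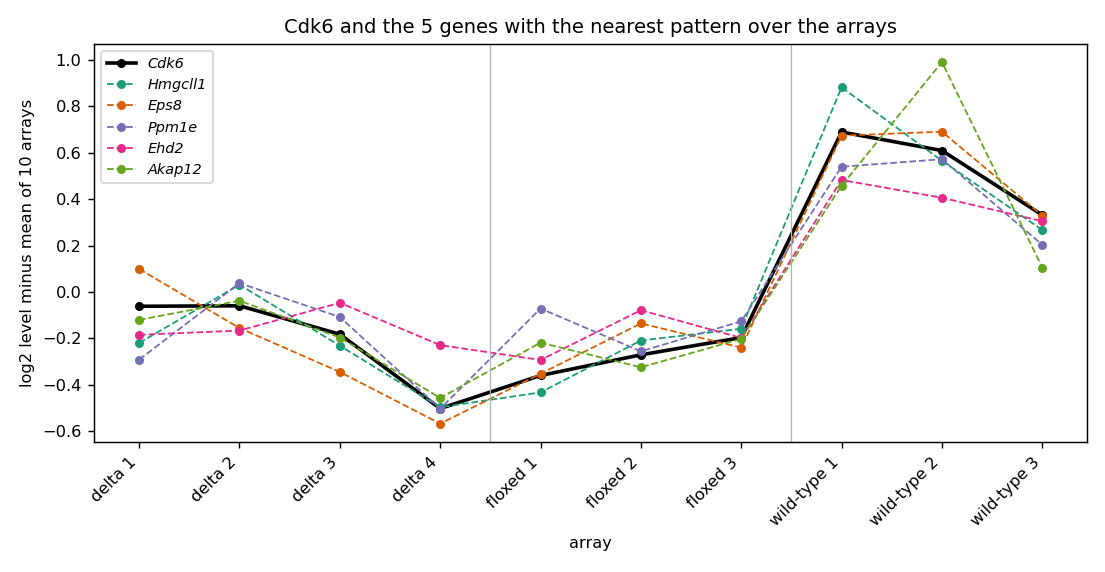
Log2 level of Cdk6 (black) and of its 5 nearest genes in each array, each gene set to a mean of 0 over the 10 arrays; the lines tie together the points of a gene and give the arrays no order. All 6 genes are higher in each of the 3 wild-type arrays than in the 4 delta and 3 floxed arrays.

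The rest of the G1 machinery was examined through a list of 25 further genes, of which 24 were measured. It held cyclins D1 and E, the remaining inhibitors, the pocket proteins Rbl1 and Rbl2, the other E2F and DP factors, the CDK-activating kinase and the p27 degradation factors. None passed the threshold in limma in any comparison. At an unadjusted p under 0.05 there were 1 higher and 1 lower in floxed versus wild-type, 0 higher and 2 lower in delta versus wild-type, and 0 higher and 1 lower in delta versus floxed. Over all genes the shares higher and lower at that p were 6.14% and 6.63%, 3.46% and 4.44%, and 3.22% and 3.2%. The list medians were 0.03, -0.00043 and -0.04. Cdk7, the catalytic part of the CDK-activating kinase, lay at 8.41 to 8.55 in delta and 8.25 to 8.55 in floxed arrays, while wild-type arrays lay at 8.63 to 8.67. All transgenic arrays lay below the wild-type arrays, with a difference of -0.26 in floxed (adjusted p = 0.181) and -0.18 in delta (adjusted p = 0.561). E2f2, an activating E2F gene of lymphocytes, was at 7.64 to 7.99 in delta against 8.08 to 8.22 in floxed arrays, a difference of -0.34 (adjusted p = 0.644). Of the 8 genes of the DREAM and MYB complexes, which keep cell cycle genes silent in resting cells or switch them on, 0 passed in limma and 0 had an unadjusted p under 0.05 in any comparison. Lin9 was at -0.23 (adjusted p = 0.401) and Lin52 at -0.01 (adjusted p = 0.956) in floxed versus wild-type.

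Genes downstream of the G1 switch were measured as well. Among 19 measured replication genes driven by E2F, 0 passed in limma in each comparison. In floxed against wild-type 15 of 19 had a change above 0, with a median of 0.10, where 41.9% of all genes lay above 0. In delta against floxed 15 of 19 had a change below 0, with a median of -0.09, where 47.9% of all genes lay below 0. Those 2 comparisons share the floxed arrays. For delta versus wild-type the median was -0.04, with 7 above 0 and 12 below, where 56.4% of all genes lay below 0. Mcm2, a subunit of the replicative helicase, lay at 9.10 to 9.25 in floxed and 8.89 to 9.01 in wild-type arrays, a difference of 0.24 (adjusted p = 0.122). Ccna2, the cyclin A2 gene, lay at 6.29 to 6.57 in delta, 6.77 to 6.98 in floxed and 6.62 to 6.76 in wild-type arrays. It was -0.45 in delta versus floxed (SE 0.09, adjusted p = 0.469).

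Of 15 measured mitosis genes 0 passed in limma, with medians of 0.07 in floxed versus wild-type, -0.10 in delta versus wild-type and -0.10 in delta versus floxed. Cdk1, the mitotic kinase gene, lay at 6.39 to 6.57 in delta, 6.76 to 6.88 in floxed and 6.55 to 6.70 in wild-type arrays, with a difference of -0.31 in delta versus floxed (SE 0.07, adjusted p = 0.528). Kif11, a spindle motor gene, differed by -0.38 in the same comparison (SE 0.08, adjusted p = 0.528) and by 0.26 in floxed versus wild-type (adjusted p = 0.223). For replication and mitosis genes the unadjusted p was under 0.05 for 4 and 4 genes in delta versus floxed, all lower. Of all genes 3.2% were lower at that p. In floxed versus wild-type the unadjusted p was under 0.05 for 1 replication gene, higher, and for 4 higher and 1 lower mitosis genes. The shares of all genes there were 6.14% higher and 6.63% lower. Beside these values, 13 of 16 listed T cell markers and 8 of 12 listed erythroid markers were measured, with 0 called in limma. Of them 6 and 5 were higher at an unadjusted p under 0.05 in floxed versus wild-type, beside 6.14% of all genes. The median changes of the T cell and erythroid markers were 0.34 and 0.58. Of 10 NK cell markers 0 were called and 4 were higher at an unadjusted p under 0.05, with Il2rb at 1.40 (adjusted p = 0.115) and Prf1 at 0.81 (adjusted p = 0.106). Il2rb and Prf1 were named after their values were seen. The 10 NK cell markers ran from -0.0049 to 1.40 with a median of 0.19. Of them 9 lay above 0 and 1 below, where 41.9% of all genes lay above 0. Of 7 plasma cell markers 1 was called higher and 1 lower, beside 0.391% and 0.161% of all genes. They were Jchain at 1.64 (adjusted p = 0.00383) and Sdc1 at -0.51 (adjusted p = 0.045). The part of these markers in the values of replication and mitosis genes was not tested.

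Among 11 measured genes of quiescence and growth input 0 passed in limma, with medians of -0.04, -0.0033 and 0.08 in the 3 comparisons. Myc, a growth factor-induced transcription factor gene, lay at 11.81, 10.71, 10.83 and 11.23 in delta, 10.88, 10.99 and 10.76 in floxed, and 10.24, 9.87 and 10.63 in wild-type arrays. All transgenic arrays lay above all wild-type arrays, with a difference of 0.90 in delta (SE 0.24, adjusted p = 0.293) and 0.63 in floxed (SE 0.26, adjusted p = 0.33). Slfn2, a gene needed in mice to keep T cells quiescent, lay at 10.51 to 10.80 in delta and 10.45 to 10.63 in floxed arrays, while wild-type arrays lay at 10.82 to 10.97. Its difference was -0.24 in delta (adjusted p = 0.46) and -0.36 in floxed (adjusted p = 0.104).

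**Figure D4:**
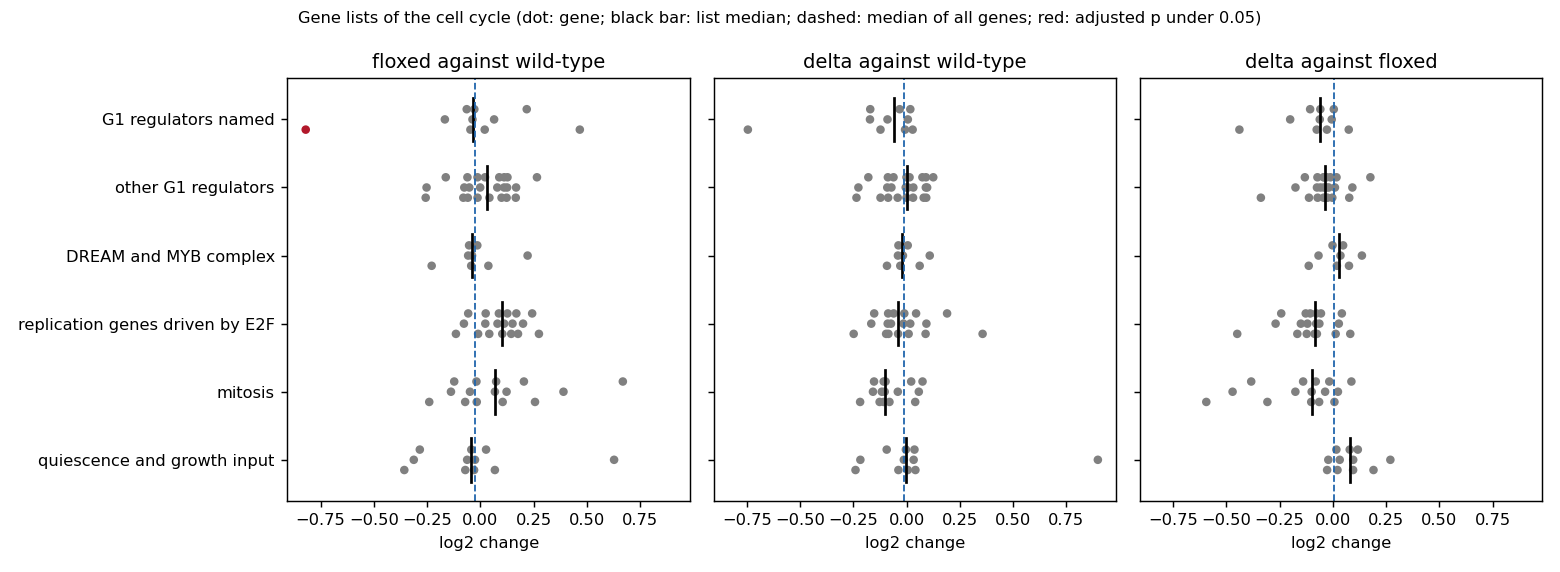
Log2 change of every measured gene of 6 cell cycle lists in the 3 comparisons, with 1 dot per gene; black bars are list medians, the dashed line is the median of all genes, and red marks an adjusted p under 0.05. Cdk6 at -0.82 is the sole red dot, and the replication list has its median at 0.10 in floxed versus wild-type and -0.09 in delta versus floxed.

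**Figure D5:**
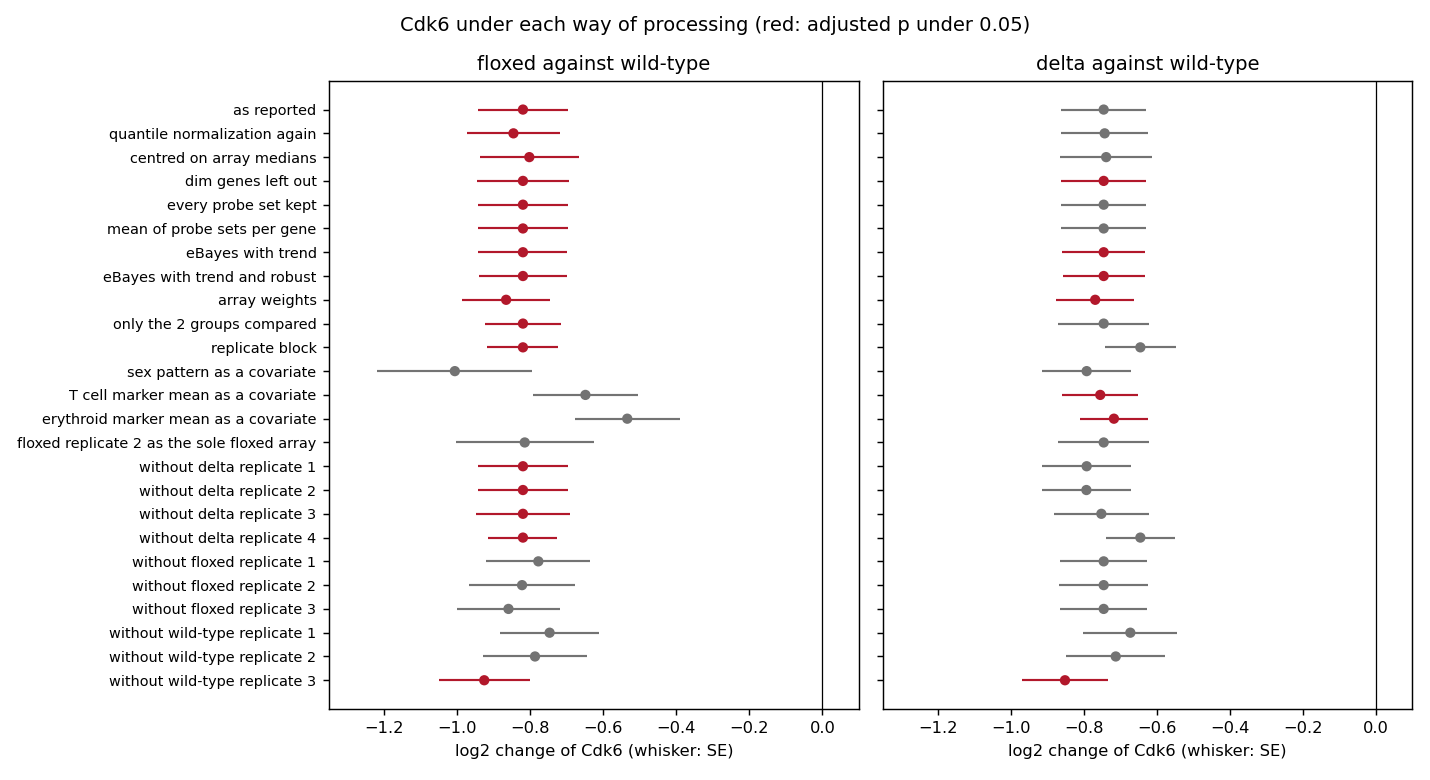
Log2 change of Cdk6 with its SE (whisker) in floxed versus wild-type and delta versus wild-type, as reported and under 24 other settings; red marks an adjusted p under 0.05. Every estimate lies between -1.01 and -0.53 in floxed and between -0.85 and -0.64 in delta, while the calls come and go.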

How the data were processed

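Per the labels, RNA of sorted splenic B cells was hybridised to 10 arrays. The authors deposited an RMA intensity for each probe set, on a linear scale, for which RMA is named in the submitters' processing notes. Neither a version nor a genome build is given in the sources used here. Log2 was taken of each value. Of 34760 probe sets, 21640 carried exactly 1 symbol in the platform annotation, 1321 several and 11799 none. The probe set with the highest mean was kept per gene, giving 19937 genes. Groups came from sample titles. limma 3.58.1 in R 4.3.3 fitted a mean per group over all 10 arrays (lmFit, eBayes, 7 residual and 11.3 total degrees of freedom), with two-sided tests of 3 comparisons, Benjamini-Hochberg adjustment over all genes and a threshold of 0.05. The fit was tested on simulated data.

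The members and lists were chosen with earlier results of these data known. All 10 members are named. Of each other cell cycle list, genes past the threshold are named, or else the 2 with the smallest p. The 5 genes nearest to a called member are named, leaving out predicted genes. Cd93, Adgre1, Itgax, Itgam, Il2rb, Prf1, Jchain and Sdc1 were named after their values were seen. Listed genes without a measured level were not analysed here. Alternatives covered normalization, dim genes, gene unit, variance prior, array weights, arrays fitted, a replicate block, sex pattern, other cells and each array left out.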

Additional observations from a re-analysis of the deposited data

Results flagged for a closer look

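In the delta group, Cdkn2c in delta 1 had a log2 level of 7.10, far below the 7.52 to 7.58 of the other 3 delta arrays. Rb1 in delta 4 had a log2 level of 11.25, above the 11.06 to 11.08 of the other 3. Both gaps exceeded Dixon's 95% critical value for 4 arrays. Only the delta group was large enough to be examined, for 10 genes, and chance flags about 1 in 20 groups.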

How the results depend on the processing

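Of 720 recomputed log2 changes of the 10 genes, 636 kept their direction and their side of the threshold, 9 lost the threshold and 7 gained it, all of Cdk6, and 68 turned sign. Those that turned had reported sizes of at most 0.22, none passed the threshold, and the cause was not tested. Genes called in floxed versus wild-type numbered 110 as reported and 208 with array weights, 193 with only the 2 groups, 188 with the replicate block, 2 with the sex pattern, 9 with the T cell mean, 8 with the erythroid mean and 6 when floxed 1 and 3 were both left out. Leaving out 1 array gave 18 to 240. Cdk6 was the sole called member in floxed versus wild-type, and 0 members were called with the sex pattern, T cell mean, erythroid mean or both floxed arrays left out, and 0 to 1 with 1 array left out. In delta against wild-type 15 genes and 0 members were called as reported. Genes were 0 with every probe set kept, 9 with a robust trend, 0 with only the 2 groups, 6 with the replicate block, 3 with the sex pattern, 0 without floxed 1 and 3 and 0 to 23 with 1 array left out. Members were 1 (Cdk6) with dim genes left out, a trend, a robust trend, array weights, the T cell mean or the erythroid mean, and 0 to 1 with 1 array left out. In delta against floxed 1 gene was called as reported, 2 with a trend, 3 with a robust trend, 2 with only the 2 groups, 2 with the replicate block and 1 to 10 with 1 array left out. The 5 other cell cycle lists had 0 genes called in limma under every alternative run.

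The labels do not state that replicate numbers pair the arrays. Deviations of same-numbered arrays correlated at -0.0828 to 0.121. In the 3 comparisons 2, 2 and 1 of 6 arrays correlated best with their own number. With so few arrays these values cannot show whether the numbers pair them. The replicate block, in which delta 4 has no partner and adds nothing, left Cdk6 at -0.82 (limma adjusted p = 0.00713) in floxed versus wild-type and -0.64 (adjusted p = 0.116) in delta versus wild-type. With the replicate block Cdk4, Cdkn2c and Cdkn2d turned to 0.040, -0.0090 and -0.041 in delta versus wild-type, and Cdk4 and Cdk2 to 0.019 and 0.040 in delta versus floxed. With the mean of probe sets Cdkn1b was 0.11, 0.0020 and -0.11 in floxed versus wild-type, delta versus wild-type and delta versus floxed. With array weights Cdk4, Ccnd3 and E2f1 turned to -0.00097, 0.0019 and 0.027 in floxed versus wild-type, Cdk4, Cdkn2c and Cdkn2d to 0.0030, -0.024 and -0.0026 in delta versus wild-type, and Cdk4 and Cdk2 to 0.0039 and 0.0086 in delta versus floxed. With the sex pattern Ccnd3, Rb1 and E2f1 turned to 0.13, 0.049 and 0.00030 in floxed versus wild-type, Cdk4 to 0.0068 in delta versus wild-type and Cdk2 to 0.028 in delta versus floxed. Values with that term rest on delta 1 in floxed versus wild-type and in delta versus floxed. With the T cell mean Ccnd3 and Cdkn2d turned to 0.020 and -0.023 in floxed versus wild-type, and Cdk6, Cdkn2d and Rb1 to -0.11, 0.034 and 0.065 in delta versus floxed. With the erythroid mean Cdk4 and Cdkn2c turned to -0.044 and -0.029 in floxed versus wild-type, Cdkn2c to -0.0068 in delta versus wild-type, and Cdk6, Cdk4, Cdkn1b, Cdkn2c and E2f1 to -0.18, 0.030, -0.025, 0.022 and 0.071 in delta versus floxed. Without floxed 1 and 3, which leaves 1 floxed array that is assumed to vary like the other groups, Cdk4, Ccnd3, Cdkn2d and E2f1 turned to -0.043, 0.039, -0.014 and 0.11 versus wild-type, and Cdk4, Cdk2, Cdkn2d and Rb1 to 0.036, 0.0067, 0.020 and 0.056 in delta versus floxed. Quantile normalization again turned Cdkn2d to -0.0032 in delta versus wild-type and Cdk2 to 0.0072 in delta versus floxed, and centring on medians turned Cdkn1b to -0.0065 there.

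With 1 array left out, the ranges that crossed 0 in floxed versus wild-type were -0.058 to 0.093 for Cdk4, -0.13 to 0.067 for Ccnd3, -0.11 to 0.031 for Rb1 and -0.15 to 0.059 for E2f1. In delta versus wild-type they were -0.086 to 0.065 for Cdk4, -0.085 to 0.11 for Ccnd2, -0.085 to 0.13 for Cdkn2c and -0.041 to 0.056 for Cdkn2d. In delta versus floxed they were -0.073 to 0.019 for Cdk4, -0.036 to 0.040 for Cdk2, -0.020 to 0.049 for Cdkn1b and -0.12 to 0.016 for Rb1.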
